A study of Mus musculus with 6 samples.

Results

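Epithelial and mesothelial genes were examined in immortalized murine embryonic fibroblasts (MEF) that lacked the RNA-binding protein TIA1 or its relative TIAR. They were 10 genes: Upk3b, Msln and Wt1, which mark the mesothelium, the keratin genes Krt7, Krt8, Krt18, Krt19 and Krt14, and the junction genes Epcam and Cldn1. All non-control array probes that carry one of these 10 gene names were taken, 11 of 55681 probes in all. Upk3b was chosen by its measured levels, since it differed strongly between the knockouts, and the other 9 as markers of the same cell types. The values of Upk3b are therefore described without a test, as are all values of the 10 genes in TIAR KO against TIA1 KO MEF.

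Embryonic fibroblasts are cultured from dissociated mouse embryos. RNA of wild-type (WT) MEF, labelled as strain W4, of TIA1 KO MEF, labelled as BALB/c, and of TIAR KO MEF, labelled as C57BL/6, was hybridized to 1-colour arrays of 60-base probes, with 2 independent samples per group and 6 arrays in all. Each group thus has its own strain and its own immortalized cells, and the knockout cannot be told apart from them. The number of clones or embryos behind each line was not given in the sources used here.

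The mesothelium is the sheet of cells that lines the body cavities and covers the organs in them. It comes from mesoderm, as fibroblasts do, and yet it is built like an epithelium, with cell junctions and keratin filaments. Keratins form filaments as pairs of an acidic type I and a basic type II chain, and Krt8 with Krt18 is the pair of simple epithelia, to which Krt7 and Krt19 also belong. Krt14 pairs with Krt5 in the basal layer of stratified epithelia. Epcam is an adhesion molecule of most epithelia, and Cldn1 is a claudin, a strand protein of tight junctions.

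The probes on which the values rest are shown by their first 30 of 60 bases, 5′ to 3′, because each gene except Krt8 was read by a single probe and a probe reports only the transcripts that hold its sequence. Positions are those the scanner files give on mm9. The Upk3b probe lies on chr5:136520522-136520581 (plus strand), the Msln probe on chr17:25885569-25885628 (minus) and the Wt1 probe on chr2:105013656-105013715 (plus). The brighter Krt8 probe lies on chr15:101827138-101827197 (minus), the other Krt8 probe on chr15:101828827-101828886 (minus) and the Krt18 probe on chr15:101862341-101862400 (plus), so the keratin pair is encoded side by side. Which exon each probe lies in was not analysed here.
Upk3b: tcaccaagtgtactggttagagagtgtaaa
Msln: tgggtaccaggggtcattgccaaagtttga
Wt1: ggtattagctgcatcactgtgtggatgtca
Krt8, brighter probe: ccatccaaacccaattcagttgtattttct
Krt8, other probe: agatctccgagatgaaccgcaacatcaacc
Krt18: ggatggcagagtggtgtccgagactaatga

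The arrays were not alike before normalization. The median spot intensity was 458 on TIA1 KO array 1 and 218 on TIA1 KO array 2, against 119 to 152 on the WT and TIAR KO arrays. Of 59305 spots, 17809 were rated well above background on TIA1 KO array 1 and 22067 on TIA1 KO array 2, against 25681 to 28525 on the others. Replicates correlated at r = 0.989 over all probes in WT, 0.988 in TIAR KO and 0.972 in TIA1 KO MEF. The 6 arrays shared 1 slide, but TIA1 KO MEF took a row to themselves, so that slide row and TIA1 loss cannot be told apart. Calls in TIA1 KO MEF rested on both WT arrays: without either of them no probe was called by limma, with 7202 and 7415 probes at an unadjusted p under 0.05. Without TIA1 KO array 1, the array that stood apart most, 3068 probes were called in place of 1969. Values below are normalised log2 intensities, and a probe was called in a comparison at a limma Benjamini-Hochberg adjusted p under 0.05 over all probes together with a fold change above 2.

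The knockout targets were read first. The brightest Tia1 probe stood at log2 10.72 and 8.54 on the WT arrays and at 7.87 and 8.44 on the TIA1 KO arrays. All values in TIA1 KO MEF lay below those of WT, but the WT arrays differed widely and the probe was not called (log2 fold change -1.47 ± 0.79 SE, limma adjusted p = 0.288). Of the other Tia1 probes, 1 read 9.56 and 9.90 in WT and 7.57 and 8.65 in TIA1 KO MEF (-1.62 ± 0.42, adjusted p = 0.116), and 1, not well above background in WT, read 7.44 and 7.25 in WT and 7.88 and 8.54 in TIA1 KO MEF (0.87 ± 0.28, adjusted p = 0.149). Tial1, which encodes TIAR, stood at 13.22 on the WT array that passed the spot filter and at 9.57 and 11.60 on the TIAR KO arrays (-2.63 ± 0.87, adjusted p = 0.200). A second Tial1 probe fell by 1.58 ± 0.26 on the log2 scale (adjusted p = 0.0254), from 11.71 and 11.09 to 10.00 and 9.65. Where these probes lie relative to the deleted parts was not given in the sources used here. The study itself reported each protein missing from its knockout cells by western blot, and each mRNA missing by RT-PCR. Gapdh, read as a control, was not called (-0.04 ± 0.16 in TIA1 KO MEF, 0.09 ± 0.14 in TIAR KO MEF), but fell by 1.41 in TIA1 KO MEF when the arrays were only scaled to a common median (limma adjusted p = 0.0158).

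Upk3b, a uroplakin found in mesothelium and urothelium, showed the widest contrast of the 10 genes. Its log2 values were 6.84 and 6.31 in WT, 6.35 and 7.42 in TIA1 KO and 13.95 and 14.15 in TIAR KO MEF. Both TIAR KO arrays were far above the other 4 arrays, where the probe was not well above background, while WT and TIA1 KO MEF overlapped. The mean spot intensities before normalization were 14637 and 14109 on the TIAR KO arrays, 143 and 106 on the WT arrays and 335 and 353 on the TIA1 KO arrays. For a lower limit, each dim array took its own value or the lowest level rated well above background there, whichever was higher. Upk3b was then at least 143-fold higher in TIAR KO than in WT MEF and at least 80.2-fold higher than in TIA1 KO MEF. Such limits hold for the normalization reported here, and other treatments of the data gave smaller fitted folds for some genes.

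Msln encodes mesothelin, a surface glycoprotein of mesothelial cells. Its log2 values were 16.47 and 15.78 in WT, 17.88 and 17.67 in TIA1 KO and 14.64 and 14.36 in TIAR KO MEF. It was well above background on all 6 arrays, the 3 groups did not overlap, and TIAR KO MEF had the lowest values where they had the highest values of Upk3b. Msln fell in TIAR KO MEF (log2 fold change -1.62 ± 0.26 SE, 3.08-fold lower, limma adjusted p = 0.0249). Its log2 fold change of 1.65 ± 0.28 in TIA1 KO MEF was not called (adjusted p = 0.0696), and was 0.17 when the arrays were only scaled to a common median.

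Wt1, a zinc finger transcription factor of the mesothelium, kidney and gonad, had log2 values of 6.56 and 6.61 in WT, 6.87 and 7.31 in TIA1 KO and 11.15 and 10.69 in TIAR KO MEF. Only the TIAR KO arrays were well above background, and they lay above all others. Wt1 rose in TIAR KO MEF (log2 fold change 4.34 ± 0.20 SE, limma adjusted p = 0.000488), at least 16.3-fold. Both values in TIA1 KO MEF lay above those of WT, but none of the 4 was well above background and the gene was not called (adjusted p = 0.211).

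**Figure D1:**
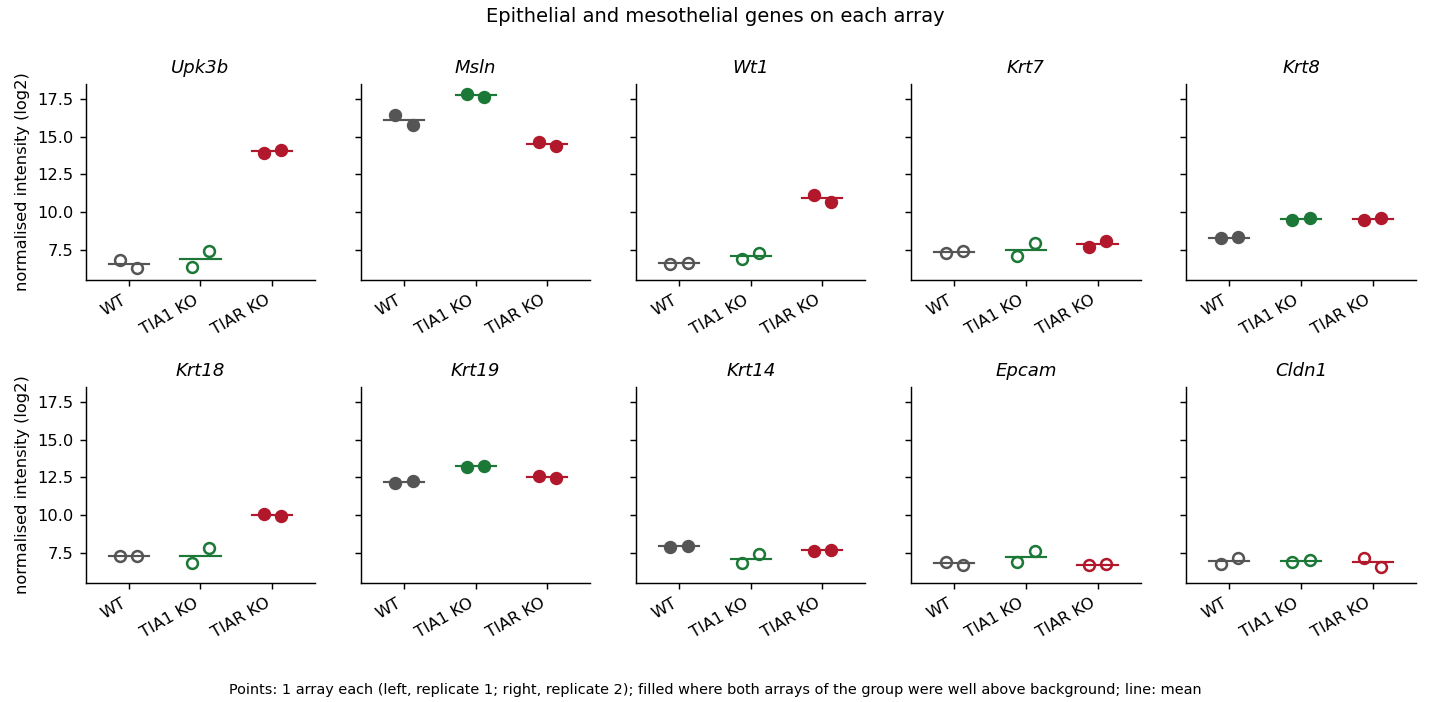
Normalised log2 intensity of the 10 genes (brightest probe of each) on the 2 arrays of each group. A point is 1 array, filled where both arrays of the group were well above background, and a line is the group mean. Upk3b, Wt1 and Krt18 stand apart in TIAR KO MEF, Msln has a different level in each group, and Epcam and Cldn1 stay near background.

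Of the keratin pair of simple epithelia, Krt18 rose in TIAR KO MEF and Krt8 in both knockouts. Krt18 had log2 values of 7.29 and 7.30 in WT, 6.80 and 7.79 in TIA1 KO and 10.08 and 9.95 in TIAR KO MEF. The TIAR KO arrays lay above the others, whereas the TIA1 KO arrays lay on either side of WT. The log2 fold change of Krt18 was 2.72 ± 0.14 SE in TIAR KO (6.59-fold, limma adjusted p = 0.000707) and -0.00 ± 0.37 in TIA1 KO MEF (adjusted p = 0.998). The probe was well above background on 1 WT array and 1 TIA1 KO array, so these fitted values depend on how low intensities were treated. Over the alternatives they lay between 2.54 and 4.75 in TIAR KO and between -0.54 and 2.10 in TIA1 KO MEF.

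The brighter Krt8 probe read log2 8.24 and 8.37 in WT, 9.44 and 9.63 in TIA1 KO and 9.47 and 9.61 in TIAR KO MEF. Both knockouts lay above WT and overlapped each other. Its log2 fold change was 1.23 ± 0.17 in TIA1 KO (limma adjusted p = 0.0444) and 1.23 ± 0.15 in TIAR KO MEF (adjusted p = 0.00990). The call in TIA1 KO MEF was made under 5 of 14 alternative treatments of the data. It was lost, among others, with the processed signal, an offset of 16, the authors' log2 table and without either WT array. The other Krt8 probe read 7.63 and 7.55 in WT and 8.68 and 8.47 in TIAR KO MEF. Its fold change in TIAR KO MEF, 1.98, missed the fold threshold with an adjusted p of 0.0224. In TIA1 KO MEF a single array passed the spot filter for that probe, at 7.95, and the log2 fold change of 0.36 ± 0.21 was not called.

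Krt19, a type I keratin of simple and ductal epithelia, had log2 values of 12.15 and 12.24 in WT, 13.22 and 13.26 in TIA1 KO and 12.60 and 12.45 in TIAR KO MEF. It was well above background on all arrays and the groups did not overlap, with TIA1 KO MEF highest. Its log2 fold change was 1.05 ± 0.15 SE in TIA1 KO MEF, which passed both thresholds narrowly (2.07-fold, limma adjusted p = 0.0498), and 0.34 ± 0.15 in TIAR KO MEF (adjusted p = 0.296). Both signs turned when the arrays were only scaled to a common median, to -0.53 and -0.12, a scaling under which the median of all probes was itself at -0.67 in the TIA1 knockout and -0.02 in the TIAR knockout.

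The other 4 genes were not called in either knockout. Krt7 ranged from 7.05 to 8.06 over the 6 arrays and was well above background on the TIAR KO arrays alone (log2 fold change 0.52 ± 0.19 in TIAR KO, limma adjusted p = 0.209, and adjusted p = 0.762 in TIA1 KO MEF). Krt14 ranged from 6.80 to 7.95. It had a log2 fold change of -0.27 ± 0.14 in TIAR KO MEF (adjusted p = 0.390), and was not well above background on the TIA1 KO arrays (at least 1.15-fold below WT, adjusted p = 0.147). Epcam was well above background on 1 TIA1 KO array and on no other, and Cldn1 on none. With WT at background, a fall could not have been detected for either gene.

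Over the 9 genes tested, 2 rose, 0 fell and 7 were not called in TIA1 KO MEF, and 3 rose, 1 fell and 5 were not called in TIAR KO MEF. Over all 35019 gene names, each read from its brightest probe, 2.87% rose and 1.62% fell in TIA1 KO MEF, and 4.35% rose and 2.81% fell in TIAR KO MEF. Arrays of knockout and WT did not overlap for 5 of the 9 genes in TIA1 KO (65.7% of all names) and for 7 of the 9 in TIAR KO MEF (50.9% of all names). The median log2 fold change of the 9 genes was 0.43 in the TIA1 knockout and 0.34 in the TIAR knockout, beside -0.07 and -0.01 over all names. Both comparisons use the same WT arrays.

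**Figure D2:**
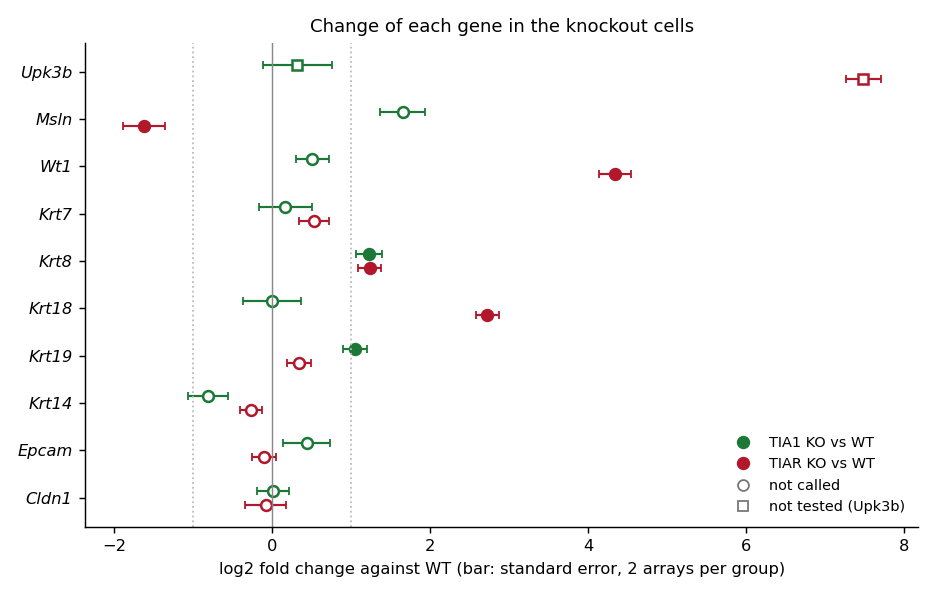
Log2 fold change against WT (x axis) of the 10 genes in TIA1 KO (green) and TIAR KO MEF (red), with bars of 1 standard error and dotted lines at a fold change of 2. Filled points were called, open circles were not, and Upk3b (squares) was not tested. Msln lies on opposite sides of 0 in the knockouts, and Krt8 at 1.23 in both.

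Between the knockouts, 3 of the 9 genes other than Upk3b differed more than 2-fold, beside 14.2% of all names. TIAR KO MEF were higher than TIA1 KO MEF by at least 80.2-fold for Upk3b and at least 9.55-fold for Wt1, which were not well above background in TIA1 KO MEF. Krt18 was well above background on 1 of the 2 TIA1 KO arrays. Its fitted log2 difference was 2.72 ± 0.37 (SE), and between 2.23 and 3.29 over the alternatives. Msln had a log2 difference of -3.28 ± 0.19, which made it 9.70-fold lower in TIAR KO MEF. Krt19 differed by -0.71 ± 0.16 and Krt8 by 0.00 ± 0.17, with overlapping arrays for Krt8. No fold is given for Epcam, which was well above background on 1 TIA1 KO array and on no TIAR KO array. Nor is one given for Krt7, Krt14 and Cldn1, which were not well above background in TIA1 KO MEF.

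Thy1, a surface glycoprotein of fibroblasts and some lymphoid and neural cells, had the pattern most like that of Upk3b. Likeness was the root mean square difference of the log2 values over the 6 arrays, each probe centred on its own mean, among 12583 named genes whose 2 arrays were well above background in any group. It was 0.394 for Thy1, 0.440 for Aldh1a1 (a retinaldehyde dehydrogenase), 0.528 for Clca3a1 (a chloride channel accessory protein), 0.546 for Isyna1 (inositol-3-phosphate synthase) and 0.625 for Fabp7 (a fatty acid binding protein). Thy1 read 6.63 and 6.98 in WT, 7.11 and 7.48 in TIA1 KO and 14.84 and 14.74 in TIAR KO MEF, and Aldh1a1 read 6.86 and 6.53, 7.57 and 8.33, and 15.04 and 14.68. Isyna1 differed from Upk3b in being well above background on both WT arrays, at 9.35 and 8.88.

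A list of 13 mesothelial genes extended the view beyond Upk3b, Msln and Wt1. Genes of the lists named here only to complete a count were chosen after their values were seen. Of the 12 tested without Upk3b, 6 rose and 2 fell in TIAR KO MEF, and 4 were not called, whereas in TIA1 KO MEF none of the 12 was called by limma (1 of them without TIA1 KO array 1 and 3 without TIA1 KO array 2). The count of 6 that rose in TIAR KO MEF held under each of the 14 alternatives, and the count of 2 that fell went to 0 without TIAR KO array 1 and to 1 without any of the other 3 arrays. The 6 and 2 genes called in TIAR KO MEF were 50% and 16.7% of the 12, beside 4.35% and 2.81% of all names. This list, like the other lists, was drawn up with earlier results of these data known. The shares therefore describe the list and are no test of enrichment. The median log2 fold change of the 12 genes was 1.63 in TIAR KO and 0.39 in TIA1 KO MEF (2.55 and 0.38 with Upk3b, which was chosen by its level). The list held 10 genes well above background on each TIAR KO array, 2 on each WT array, and 2 and 3 on the TIA1 KO arrays.

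Gpm6a, a membrane glycoprotein of neurons that mesothelial cells also express, read log2 6.58 and 6.35 in WT, 6.85 and 7.01 in TIA1 KO and 12.98 and 12.52 in TIAR KO MEF. It was well above background in TIAR KO MEF alone, at least 58.3-fold above WT (log2 fold change 6.29 ± 0.21, limma adjusted p = 0.000254). Upk1b, a tetraspanin of the uroplakin family, read 6.59 and 6.57 in WT, 6.99 on each TIA1 KO array and 11.62 and 11.83 in TIAR KO MEF, at least 28.6-fold above WT (5.15 ± 0.15, adjusted p = 0.000206). Nkain4, which interacts with the sodium pump, read 7.10 and 6.87, 6.69 and 7.22, and 11.15 and 11.53, at least 19.9-fold above WT in TIAR KO MEF (4.36 ± 0.19, adjusted p = 0.000451). In all 3 genes the TIAR KO arrays stood above the other arrays, and WT and TIA1 KO MEF were near background.

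The remaining genes that rose in TIAR KO MEF were Bnc1, a zinc finger protein (at least 6.38-fold), and Lrrn4, a leucine-rich repeat membrane protein (at least 4.91-fold), both near background in WT. Pdpn, the podoplanin gene of mesothelium and lymphatic vessels, fell by 1.04 and was, like Msln, well above background on all arrays. Its call was made under 9 of the 14 alternatives. It was lost with the processed signal, the authors' log2 table, without either WT array and without TIAR KO array 1. Calb2, Muc16 and Aldh1a2, which are also used as mesothelial markers, were well above background on no array. Rspo1, a secreted activator of Wnt signalling, was highest in TIA1 KO MEF, at log2 8.20 and 9.18 against 7.02 and 6.65 in WT and 7.67 and 7.42 in TIAR KO MEF. It was not called in either knockout, but was called higher in TIA1 KO MEF under 4 of the 14 alternatives. Its fitted log2 fold change in TIA1 KO MEF was 1.85 ± 0.39 (limma adjusted p = 0.0898), with 1 of the 2 arrays well above background. The mesothelial genes thus did not move as 1 group. Summed over the list, the linear intensity was 122299 and 87792 in WT, 275408 and 243552 in TIA1 KO and 72097 and 72415 in TIAR KO MEF, and Msln had its brightest probe. Upk3b was chosen by the contrast between the knockouts and the list follows its cell type, so a share there is no independent support. Between the knockouts, Gpm6a, Upk1b, Nkain4, Bnc1 and Lrrn4 were higher in TIAR KO MEF, 5 of the 10 genes tested (limma adjusted p between 0.00571 and 0.0338, background 2.06%). With the processed signal Gpm6a and Nkain4 alone were called, and with the replicate block none of them was. Without TIAR KO array 1 or TIAR KO array 2 no probe at all was called by limma in that comparison (6318 and 6402 at an unadjusted p under 0.05).

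**Figure D3:**
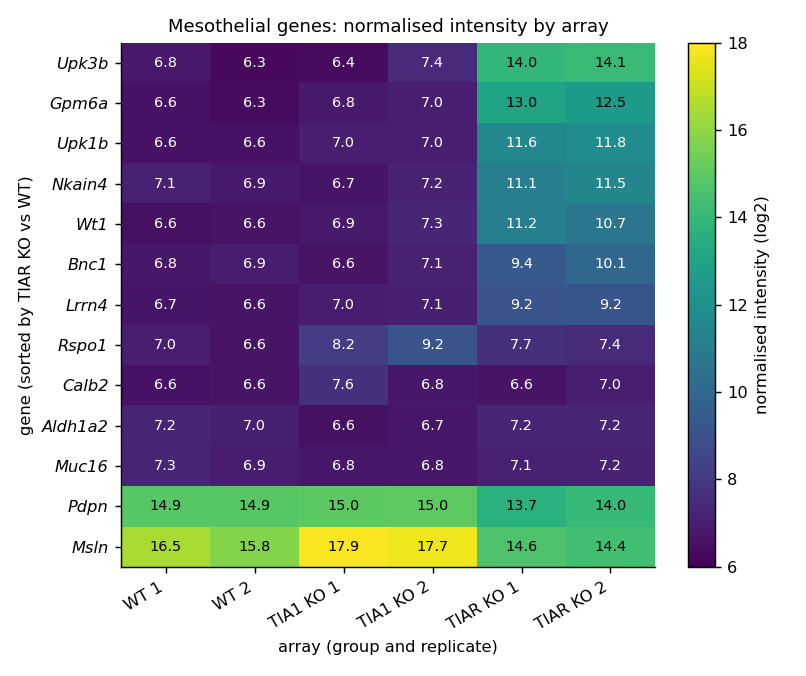
Normalised log2 intensity (colour and printed value) of the 13 mesothelial genes (rows, sorted by their change in TIAR KO MEF) on the 6 arrays (columns). Upk3b, Gpm6a, Upk1b, Nkain4, Wt1, Bnc1 and Lrrn4 are high on the TIAR KO arrays alone, while Msln and Pdpn are bright on all arrays and lowest there.

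Upk1b and Upk3b were the 2 uroplakins that stood out among 6. Uroplakins are membrane proteins that form the plaques of the urothelium. Upk1a, Upk2 and Upk3a were not called in any comparison, nor was Upk3bl, a close relative of Upk3b whose probe lies 19.6 kb away. Upk3bl read 8.07 and 8.28 in WT, 7.01 and 7.42 in TIA1 KO and 8.54 and 8.60 in TIAR KO MEF. Between the knockouts it was at least 1.80-fold higher in TIAR KO MEF (limma adjusted p = 0.0561), and it was called higher there under 6 of the 14 alternatives, as Upk1a was under 2.

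Among 54 keratin genes, Krt8 and Krt19 rose in TIA1 KO MEF and none fell, 3.70% beside 2.87% of all names. Over the 14 alternatives between 0 and 10 keratins rose there and between 0 and 4 fell: none was called with the processed signal, with the authors' log2 table or without either WT array, 3 rose and 1 fell without TIA1 KO array 1, and 10 rose and 4 fell without TIA1 KO array 2. Krt36, a hair keratin that was not called as reported, was called higher in TIA1 KO MEF under 6 of the 14. In TIAR KO MEF Krt8, Krt18 and Krt13 rose (5.56% beside 4.35% of all names) and Krt80 fell. Krt13, a type I keratin of mucosal epithelia, had log2 values of 6.77 and 6.83 in WT and 9.75 and 8.64 in TIAR KO MEF (limma adjusted p = 0.0214). Its lower limit of 4.55-fold rests on the mean of those unlike TIAR KO arrays. Over the alternatives its log2 fold change lay between 1.13 and 5.92. The other Krt13 probe was well above background on no array and changed by -0.13. Krt80, a filament keratin of many epithelia, fell by 1.36 ± 0.14 (adjusted p = 0.00541), from 9.82 and 9.86 to 8.47 and 8.50. In TIA1 KO MEF it read 7.67 and 8.60 (-1.71 ± 0.35, adjusted p = 0.0894), not called as reported and called lower under 5 of the 14. The median log2 fold change over the 54 genes was 0.11 in the TIA1 knockout and 0.03 in the TIAR knockout, and 16 of them were well above background in at least 1 group. Of 25 claudins, Cldn15 alone was called against WT by limma (4% of the list, beside 4.35% of all names that rose in TIAR KO MEF). It rose in TIAR KO MEF, from 8.23 and 8.35 in WT to 12.43 and 12.06 (3.96 ± 0.18, adjusted p = 0.000495), while the TIA1 KO arrays read 8.19 and 7.95.

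Of 25 genes of epithelial junctions, 4 were called in each knockout and 21 were not. In TIA1 KO MEF 4% rose and 12% fell, beside 2.87% and 1.62% of all names. In TIAR KO MEF 12% rose and 4% fell, beside 4.35% and 2.81%. In TIA1 KO MEF 1 rose (Cdh3) and 3 fell (F11r, Pkp1 and Pkp2), the same counts as without TIA1 KO array 1, but 5 and 4 without TIA1 KO array 2, 2 and 8 with common median scaling and 0 and 0 with the processed signal. Cdh3 was called there under 11 of the 14 alternatives, F11r and Pkp2 under 10 and Pkp1 under 8. Of the 25, 3 rose in TIAR KO MEF (Cdh1, Cdh3 and Ppl) and 1 fell (Pkp1). Cdh3, the gene of P-cadherin, read log2 6.54 and 6.78 in WT, 11.08 and 10.95 in TIA1 KO and 10.44 and 11.11 in TIAR KO MEF. Both knockouts were clear of WT. As normalised here, Cdh3 was at least 16.4-fold higher in TIA1 KO (limma adjusted p = 0.00479) and at least 13.9-fold in TIAR KO MEF (adjusted p = 0.00117). Over the alternatives its fitted log2 fold change lay between 3.17 and 7.28 in TIA1 KO and between 3.62 and 6.80 in TIAR KO MEF. Cdh1, which encodes E-cadherin, the defining cadherin of epithelia, read 6.69 and 6.76 in WT, 6.89 and 7.10 in TIA1 KO and 8.37 and 8.26 in TIAR KO MEF. It rose at least 2.53-fold in TIAR KO MEF (log2 fold change 1.58 ± 0.14, adjusted p = 0.00371).

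F11r encodes a junctional adhesion molecule of tight junctions. Its log2 values were 14.37 and 14.33 in WT, 12.29 and 12.41 in TIA1 KO and 14.87 and 14.99 in TIAR KO MEF, with no overlap between groups. It fell by 2.00 ± 0.15 on the log2 scale in TIA1 KO MEF (limma adjusted p = 0.0149), and its difference of 0.58 ± 0.14 in TIAR KO MEF was not called (adjusted p = 0.0802). Pkp1, a plakophilin of desmosomes, fell in both knockouts, from 11.58 and 11.44 in WT to 7.95 and 8.87 in TIA1 KO (8.60-fold, adjusted p = 0.0329) and 8.71 and 8.72 in TIAR KO MEF (6.95-fold, adjusted p = 0.000684). It was well above background on 1 of the 2 TIA1 KO arrays, so the fold there is a fitted value. Ppl, which encodes the desmosomal linker periplakin, rose by 2.83 ± 0.16 in TIAR KO MEF (adjusted p = 0.000911). Its TIA1 KO arrays, 10.39 and 8.20, lay on either side of the WT values of 9.25 and 9.01.

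**Figure D4:**
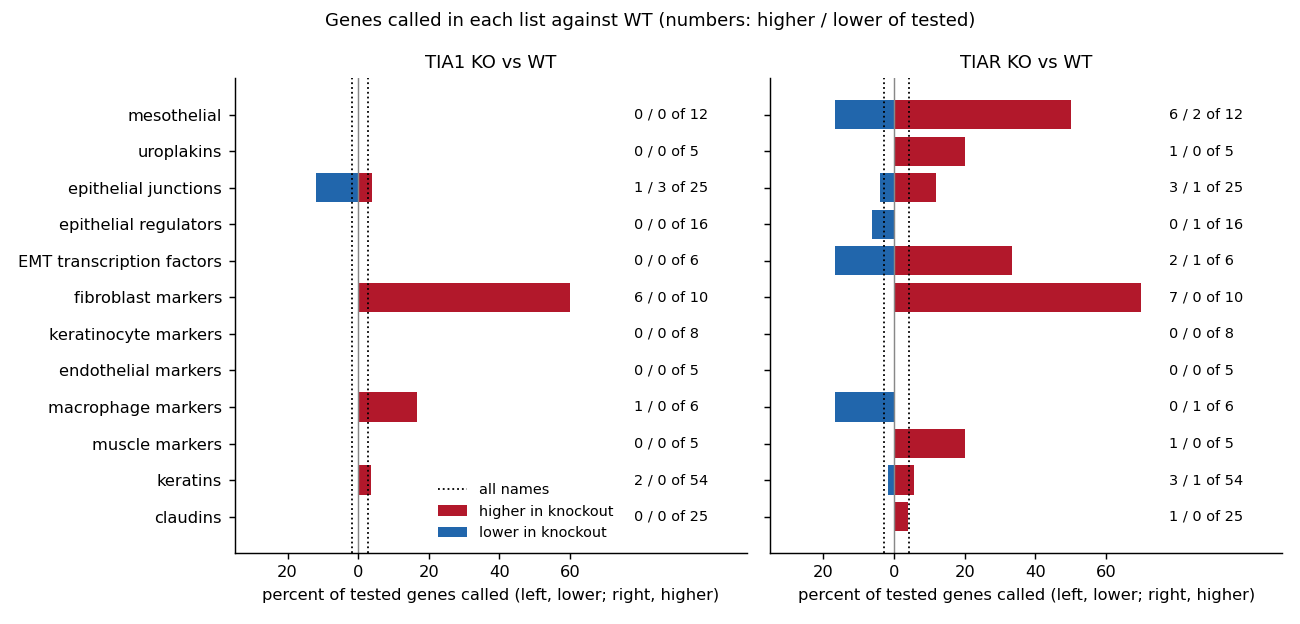
Percent of the tested genes of each list that were called higher (red, to the right) or lower (blue, to the left) in each knockout against WT, with the counts printed beside the bars. Dotted lines give the percent over all 35019 gene names. In TIAR KO MEF 6 of 12 mesothelial genes and 7 of 10 fibroblast markers rose, beside 4.35% of all names.

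Most regulators of epithelial identity were near background, with 6 of 16 well above it on both arrays of at least 1 group. Of the 16 (among them the Grhl and Ovol factors and the Esrp splicing factors) none was called in TIA1 KO MEF and only Klf5, a zinc finger factor, was called in TIAR KO MEF, where it fell by 1.13 ± 0.21 on the log2 scale (limma adjusted p = 0.0377). Klf5 was called there under 7 of the 14 alternatives, and not without WT array 2 or without either TIAR KO array. This gene was 6.25% of the list, beside 2.81% of all names that fell in TIAR KO MEF. Esrp2, with log2 values of 6.98 and 7.30 in WT and 7.96 and 8.40 in TIAR KO MEF (at least 1.92-fold, adjusted p = 0.0515), was called higher under 6 of the 14. All 6 transcription factors of epithelial-mesenchymal transition were well above background on every array. Of these, Snai1 rose in TIAR KO MEF by 1.49 ± 0.25 (adjusted p = 0.0278) and Snai2 by 1.41 ± 0.22 (adjusted p = 0.0209), and Twist2 fell by 1.25 ± 0.22 (adjusted p = 0.0336). The 2 that rose and the 1 that fell were 33.3% and 16.7% of the 6, beside 4.35% and 2.81% of all names. These 3 calls were made under 10, 9 and 10 of the 14 alternatives. None of them was made with the processed signal or without TIAR KO array 2, those of Snai1 and Snai2 were lost with common median scaling and without TIAR KO array 1, that of Snai2 without WT array 1, and that of Twist2 without either WT array. Snail factors are best known as repressors of Cdh1. None of the 6 was called in TIA1 KO MEF, where Snai2 had a log2 fold change of 1.30 ± 0.23 (adjusted p = 0.0704).

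The label of the cells was checked against 10 fibroblast markers. Vim, S100a4, Col1a1, Col1a2 and Fn1 were well above background on all 6 arrays, as were Col3a1 and Pdgfrb. Pdgfra was on no WT array, Thy1 was on both TIAR KO arrays and 1 WT array, and Fap was on none, so part of the markers were near background in WT MEF. In TIA1 KO MEF 6 of the 10 rose (between 0 and 7 under the 14 alternatives, with 5 without TIA1 KO array 1 and 0 with the processed signal or without either WT array). In TIAR KO MEF 7 rose, a count of 6 or 7 under all 14. The 6 and 7 genes were 60% and 70% of the list, beside 2.87% and 4.35% of all names that rose. Col3a1, a fibrillar collagen, read log2 9.52 and 9.08 in WT, 15.59 and 15.65 in TIA1 KO and 15.16 and 16.65 in TIAR KO MEF. It rose by 6.32 ± 0.21 in TIA1 KO (limma adjusted p = 0.00369) and by 6.60 ± 0.50 in TIAR KO MEF (adjusted p = 0.00206).

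Pdgfra, a receptor of platelet-derived growth factor, rose as normalised here at least 9.52-fold in TIA1 KO and at least 26.1-fold in TIAR KO MEF. Over the alternatives its fitted log2 fold change lay between 2.65 and 7.09 in TIA1 KO and between 4.83 and 8.54 in TIAR KO MEF. The summed linear intensity of the fibroblast list was 533535 and 567127 in WT, 1314460 and 1289180 in TIA1 KO and 1340340 and 1361140 in TIAR KO MEF, with S100a4 as its brightest probe. From RNA of whole cultures, a larger share of mesothelial cells and more of these RNAs per cell cannot be told apart, and the part of either in the result was not tested.

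Markers of other cell types were read as well. Of 8 keratinocyte and 5 endothelial markers none was called by limma in either knockout. Of 6 macrophage markers Itgam rose in TIA1 KO MEF by 1.82 (called under 6 of the 14 alternatives) and Aif1 fell at least 2.56-fold in TIAR KO MEF (called under all 14). Its TIA1 KO arrays were at least 2.08-fold below WT, not called as reported (limma adjusted p = 0.0518) and called lower under 8. Of 5 muscle markers Des rose in TIAR KO MEF by 1.15. Itgam and Aif1 were each 16.7% of the macrophage list, beside 2.87% of all names that rose in TIA1 KO and 2.81% that fell in TIAR KO MEF. Des was 20% of the muscle list, beside 4.35% of all names that rose in TIAR KO MEF. The summed linear intensity of the keratinocyte list, whose brightest probe was that of Trp63, was 3825 and 4128 in WT, 5478 and 4496 in TIA1 KO and 3764 and 4085 in TIAR KO MEF. That of the endothelial list, with Kdr brightest, was 2933 and 3184, 3330 and 3358, and 3480 and 3873. That of the macrophage list, with Itgam brightest, was 6989 and 5141, 15142 and 12736, and 8035 and 7832, and that of the muscle list, with Des brightest, 631 and 655, 689 and 636, and 895 and 862. Their part in the result was not tested.

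Promoters of 3 genes are shown because Krt8 and Krt18 form 1 filament, and because Upk3b had the widest contrast. They are RefSeq promoters on GRCm38.p6, from 250 bases before to 50 after the gene start, for 7 of the 10 genes in all. Capitals mark the motifs searched on both strands: the TATA box (TATAAA or TTTATA), the GC box (GGGCGG or CCGCCC) and the E-box that Snail and Zeb factors are known to bind (CACCTG or CAGGTG). The Upk3b promoter lies on chr5:136038246-136038545 (plus strand), that of Krt8 on chr15:102004293-102004592 (minus) and that of Krt18 on chr15:102027966-102028265 (plus).
Upk3b promoter: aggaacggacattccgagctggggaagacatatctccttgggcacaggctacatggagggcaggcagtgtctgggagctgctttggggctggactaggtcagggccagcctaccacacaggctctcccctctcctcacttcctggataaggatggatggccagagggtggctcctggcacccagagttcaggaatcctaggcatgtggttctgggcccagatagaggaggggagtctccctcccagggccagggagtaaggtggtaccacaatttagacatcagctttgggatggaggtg
Krt8 promoter: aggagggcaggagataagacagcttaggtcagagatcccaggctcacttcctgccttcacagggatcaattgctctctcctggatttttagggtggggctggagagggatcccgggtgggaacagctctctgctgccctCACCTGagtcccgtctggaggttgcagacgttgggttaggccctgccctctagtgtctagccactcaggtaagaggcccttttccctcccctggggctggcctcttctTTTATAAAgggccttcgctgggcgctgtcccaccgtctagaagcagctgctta
Krt18 promoter: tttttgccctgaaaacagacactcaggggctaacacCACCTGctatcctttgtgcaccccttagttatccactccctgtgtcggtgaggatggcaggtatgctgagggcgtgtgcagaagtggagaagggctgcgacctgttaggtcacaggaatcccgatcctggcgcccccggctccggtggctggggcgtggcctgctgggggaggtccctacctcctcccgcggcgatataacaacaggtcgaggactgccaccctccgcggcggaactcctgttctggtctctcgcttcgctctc

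Krt8 held a TATA box read on both strands, overlapping at -3 and -1 from the gene start, and an E-box at -111, and Krt18 held an E-box at -214. None of the 3 motifs was in the Upk3b window. Of the other promoters, Krt7 held 4 GC boxes and 1 E-box, Epcam 1 GC box and 2 E-boxes, Cldn1 2 GC boxes and Krt14 none of them. Over 32851 promoters of that length, 13.6% held the TATA box, 35.7% the GC box and 20.2% this E-box. A match describes the letters and shows no binding.

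**Figure D5:**
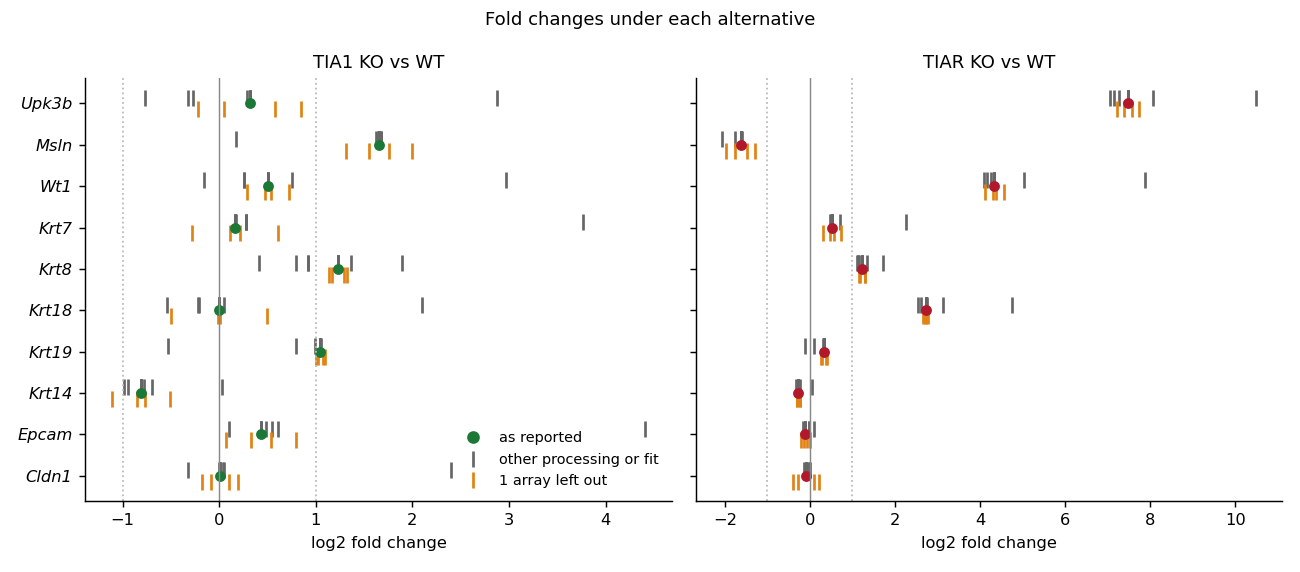
Log2 fold change of the 10 genes in each knockout against WT as reported (coloured points), under other processing or another fit (grey ticks) and with 1 array left out (orange ticks). Upk3b, Wt1 and Krt18 stayed above a fold of 2 in TIAR KO MEF throughout, between 7.07 and 10.49, 4.09 and 7.89, and 2.54 and 4.75 on the log2 scale, while TIA1 KO values of genes near background moved by several units.

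The fold changes of the genes that were near background in 1 group depended on how low intensities were treated, as the plot of the alternatives shows. In TIAR KO MEF, the calls of Wt1 and Krt18 were made under all 14 alternatives, that of Krt8 under 13 and that of Msln under 12 (not without TIAR KO array 1, adjusted p = 0.0869, nor without TIAR KO array 2, 0.127). In TIA1 KO MEF, Krt8 was called under 5 of 14 and Krt19 under 4 of 14, neither of them without WT array 1 or without WT array 2, while Msln, not called as reported, was called under 4.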

How the data were processed

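Gene expression was measured on 6 Agilent arrays, 2 each for WT and for either knockout. The authors deposited the intensity and local background of each spot from Feature Extraction 10.7.3.1, not normalized between arrays, and a table of log2 values normalized with limma. Intensities were corrected by normexp (offset 50), taken to log2, adjusted by loess and quantile normalized, the steps that the study's methods name. They give no reference for loess on 1-colour arrays, and 1 pass against the mean of the arrays was chosen here. Control spots and outlier spots were dropped and spots of a probe averaged. Each comparison was fitted with limma 3.58.1 (lmFit, eBayes) in R 4.3.3 on its own 4 arrays, with Benjamini-Hochberg adjustment over 55681 probes. Genes were read from their brightest probe and named from the files or GRCm38.p6 (27235 of 28685 RefSeq accessions matched). The number of arrays limits the precision.

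The members and the 12 gene lists were chosen with earlier results of these data known. Named from the lists were up to 3 called genes per knockout with the largest fold changes, well above background in the higher group, and the 5 genes most like Upk3b. Others were named after their values were seen. Alternatives were the processed signal at its 75th percentile, an offset of 16, no loess, common median scaling, probes well above background only, outlier spots kept, the mean of a gene's probes, all groups in 1 fit, an intensity trend, a replicate block, the authors' log2 table and each array left out. A gene of the epithelial junction list is not reported here. The promoters of Msln, Wt1 and Krt19 were not used here.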

Additional observations from a re-analysis of the deposited data

Results flagged for a closer look

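Differences between TIAR KO and TIA1 KO MEF stood out for 7 genes. Msln had a log2 difference of -3.28, and stood out because both TIA1 KO arrays lay above both WT arrays and both TIAR KO arrays below them. This difference between the knockouts was not tested. The other 6 passed both thresholds when the knockouts were compared directly with limma. They had been named for large fold changes against WT in a knockout. That choice used the same knockout arrays and favoured a difference here, so these p-values are no independent support. TIAR KO MEF were higher by a fitted 5.83 on the log2 scale for Gpm6a (adjusted p = 0.00600), 4.74 for Upk1b (adjusted p = 0.00571), 4.38 for Nkain4 (adjusted p = 0.00989) and 4.17 for Cldn15 (adjusted p = 0.00830). These 4 were not well above background on the TIA1 KO arrays, so that only lower limits can be read, at least 37.7-fold for Gpm6a, 18.6-fold for Upk1b and 13.1-fold for Nkain4, and for Cldn15 a limit equal to its fitted fold. TIAR KO MEF were higher by 2.58 on the log2 scale for F11r (adjusted p = 0.0101) and 1.46 for Pdgfra (adjusted p = 0.0354). Against WT, F11r fell in TIA1 KO MEF and was not called in TIAR KO MEF, and Pdgfra rose in both. These 6 calls were lost without TIAR KO array 1 and without TIAR KO array 2, when 0 probes were called by limma (6318 and 6402 at an unadjusted p under 0.05). All 6 were lost with the replicate block as well. Those of Upk1b, F11r and Pdgfra were lost with the processed signal, and that of Pdgfra with the authors' log2 table. With 2 arrays per group no array could be called an outlier.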

How the results depend on the processing

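The count of the 9 tested genes called in TIAR KO MEF stayed at 4 under every alternative that kept all arrays, and lay between 2 and 4 with 1 array left out (3 without TIAR KO array 1 and 2 without TIAR KO array 2). In TIA1 KO MEF the count of 2 went to 0 with the processed signal, an offset of 16, no loess, common median scaling, the replicate block and the authors' log2 table, to 1 with outlier spots kept and to 3 with probes well above background only and with all groups in 1 fit, and lay between 0 and 4 with 1 array left out (0 without either WT array, 1 without TIA1 KO array 1 and 4 without TIA1 KO array 2). Genes more than 2-fold apart between the knockouts, Upk3b among them, went from 4 to 7 with the processed signal.

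Over all probes, 1969 were called in TIA1 KO MEF, but 0 with the processed signal (27765 at an unadjusted p under 0.05), 15801 with common median scaling (1876 higher and 13925 lower, against 1213 and 756 as reported), 3986 with all groups in 1 fit (1881 higher and 2105 lower), 2949 with probes well above background only (1319 higher and 1630 lower), 1309 with the authors' log2 table and between 0 and 10735 with 1 array left out (10735 without TIA1 KO array 2). Common median scaling turned the split in TIAR KO MEF from 1885 higher and 1321 lower to 1424 and 2715. TIAR KO against TIA1 KO gave 1866 calls, 8307 with common median scaling (7242 higher and 1065 lower, against 958 and 908), 125 higher and 1384 lower with the processed signal, 2925 with probes well above background only (1801 higher and 1124 lower), 3183 with all groups in 1 fit and between 0 and 10086 with 1 array left out (3422 without TIA1 KO array 1 and 10086 without TIA1 KO array 2). Over all probes the log2 median stood at 1.98 in TIA1 KO MEF with the processed signal, at -1.85 between the knockouts, and at -0.67 and 0.63 with common median scaling. Where 1 array of a group was left, its spread was taken from the other group. The cause was not tested.

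Replicate numbers did not pair the samples, with correlations of same-number deviations of 0.078, 0.030 and -0.072 between groups. With the replicate block 671 probes were called in TIA1 KO, 3302 in TIAR KO and 0 between the knockouts (10675 at an unadjusted p under 0.05), and 0 and 4 of the 9 genes. The replicate block left 0 keratins, 3 fibroblast markers and 1 junction gene called in TIA1 KO MEF.

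Of 864 values of single genes under the alternatives, 733 kept direction and call, 76 lost and 8 gained the call, 24 without a test moved, and 23 turned in sign. With the processed signal Krt18 became 2.10 and Krt14 0.0252 in TIA1 KO MEF. In TIAR KO MEF it made Krt14 0.0389, Epcam 0.10, Cldn1 0.006 and Gapdh -0.10. With an offset of 16 Krt18 became 0.0536 and Cldn1 -0.0003 in TIA1 KO MEF. With common median scaling Wt1 became -0.16, Krt19 -0.53 and Cldn1 -0.32 in TIA1 KO MEF, where Gapdh was called lower at -1.41, with Krt19 at -0.12 and Gapdh at -0.15 in TIAR KO MEF. The mean of its probes gave Gapdh -0.0806 in TIAR KO MEF. With 1 array left out, TIA1 KO values ranged from -0.28 to 0.61 for Krt7, from -0.50 to 0.49 for Krt18, from -0.18 to 0.20 for Cldn1 and from -0.13 to 0.0493 for Gapdh, and TIAR KO values of Cldn1 from -0.39 to 0.22. Genes near background (Epcam, Cldn1, Krt14 in TIA1 KO MEF, and Krt7, Krt18, Wt1 and Upk3b outside TIAR KO MEF) are limited by signal.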

Other observations

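Genes that lie within 200 kb of the probes of Upk3b, Wt1, Krt18 and Msln, in the files' mm9 positions, were read to see what else was measured around them, where their brightest probe matched a RefSeq gene. This window was chosen after values were seen. Beside the counts that follow, 4.35% of all names rose and 2.81% fell in TIAR KO MEF, and 2.87% rose and 1.62% fell in TIA1 KO MEF. Of 14 genes around Upk3b none rose in TIAR KO MEF, which says little at such a share. Their log2 fold changes against WT in TIAR KO MEF lay between -1.74 and 0.39. Rasa4, a Ras GTPase-activating protein, fell by 1.30 (limma adjusted p = 0.0182) and Orai2, a calcium channel subunit, fell by 1.74 (adjusted p = 0.00308). The small heat shock protein gene Hspb1 fell by 2.68 in TIA1 KO MEF (adjusted p = 0.0203), where Rasa4 and Ssc4d were called lower as well. Of 13 genes around Krt18, 1 rose and 1 fell in TIAR KO MEF, not counting Krt8, whose brighter probe lies there without a RefSeq accession. Igfbp6, which encodes an insulin-like growth factor binding protein, read log2 11.02 and 10.96 in WT, 12.06 and 11.69 in TIA1 KO and 16.16 and 16.26 in TIAR KO MEF (log2 fold change 5.21 ± 0.14 in TIAR KO MEF, adjusted p = 0.000186). Itgb7, an integrin subunit of lymphocytes, fell by 3.32 ± 0.15 in TIAR KO MEF (adjusted p = 0.000444), from 13.34 and 13.20 to 9.90 and 10.00.

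Wt1os, the non-coding gene transcribed opposite Wt1, rose in both knockouts, at least 2.10-fold in TIAR KO MEF (limma adjusted p = 0.00583). In TIA1 KO MEF its fitted log2 fold change was 1.63 ± 0.19 (adjusted p = 0.0329), with 1 of the 2 arrays well above background. Its log2 values were 6.43 and 6.63 in WT, 8.03 and 8.29 in TIA1 KO and 7.98 on each TIAR KO array. Around Msln, 25 genes were measured. In TIAR KO MEF Lmf1 rose by 1.17 on the log2 scale and Wdr90 fell by 1.14 (adjusted p = 0.00979 and 0.0243), and Wdr90 was lower in TIA1 KO MEF as well (log2 fold change -1.32, adjusted p = 0.0413).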
